A study of Mus musculus with 2 samples.

Results

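The interferon-stimulated genes are genes whose transcription rises when a cell receives an interferon signal. A fixed list of 33 of them, 4 transcription factors, 3 RNA sensors and 26 effectors, was looked up by gene symbol in the expression tables of cultured perivascular cells (PCs) of the mouse aorta. All 33 symbols were found among the 20211 gene symbols of the tables, each on a single row, and 17 of them had a level of 1 RPKM (reads per kilobase of transcript, scaled to the mapped reads) or more as the mean of both libraries. Genes that reach this mean, 10068 in all, are called expressed below. The study sequenced 1 library of wild type (WT) PCs and 1 library of PCs labelled as a knockout of Kai1, also called Cd82, which encodes a tetraspanin membrane protein (Kai1-/-). Both were labelled as primary aortic PCs of the C57BL/6 strain in DMEM, with 10% FBS in the sample labels and another FBS percentage in the study's methods, and neither was labelled with an agent, an interferon or a virus. With 1 library per genotype there is no replicate check and no test across genes was made, so every difference below is a difference between these libraries.

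Interferons bind receptors that activate the kinases JAK1, TYK2 and JAK2, which phosphorylate STAT proteins. STAT2 and IRF9 are subunits of the complex ISGF3, which binds the interferon-stimulated response element (ISRE), and STAT dimers bind the gamma-activated site (GAS). The induced genes encode RNA sensors, antiviral effectors and regulators of the pathway itself, and many are transcribed at a low level without added interferon. Aortic mural cells carry interferon receptors and can respond in this way.

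Of the 33 genes, 25 had an entry among the RefSeq promoters of build GRCm38.p6 (250 bases before to 50 after a transcription start). An ISRE core, searched as GAAA, any 2 bases and GAAA on both strands, stood in 14 of the 29 promoters of these genes, or 48.3%, against 3.44% of all 32851 promoters. A GAS, searched as TTCNNNGAA, a motif that reads alike on both strands, stood in 7 of the 29, or 24.1%, against 8.30% of all promoters. The stretches around the motifs are shown for 4 genes that were far lower in Kai1-/- PCs (Isg15, Ifit1, Ifit3 and Bst2), for the guanylate-binding protein gene Gbp2, and for 2 transcription factor genes that were not (Stat2 and Irf1). They were placed on NCBI37 (mm9), the build of the expression values, by exact match, and are given 5′ to 3′ on the strand of the gene, with the motifs in capitals. The capitals mark the ISRE core or its reverse complement in every stretch but that of Irf1, where they mark a GAS.
Isg15, chr4:155574969-155575020, minus strand, with 3 overlapping cores of which the farthest began 78 bases before the start: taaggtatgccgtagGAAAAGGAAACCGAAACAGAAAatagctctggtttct
Ifit1, chr19:34715260-34715318, plus strand, with 2 cores 104 and 85 bases before the start: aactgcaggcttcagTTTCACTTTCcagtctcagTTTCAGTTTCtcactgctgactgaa
Ifit3, chr19:34657848-34657921, plus strand, with 2 cores 156 and 122 bases before the start: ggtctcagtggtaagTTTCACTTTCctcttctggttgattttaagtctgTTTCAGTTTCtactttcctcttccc
Bst2, chr8:74061471-74061516, minus strand, with 2 overlapping cores 130 and 124 bases before the start: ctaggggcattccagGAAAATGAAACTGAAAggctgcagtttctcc
Gbp2, chr3:142283553-142283592, plus strand, with 1 core 59 bases before the start: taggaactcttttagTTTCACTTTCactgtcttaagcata
Stat2, chr10:127707317-127707356, plus strand, with 1 core 222 bases before the start: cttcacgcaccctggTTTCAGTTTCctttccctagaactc
Irf1, chr11:53583411-53583449, plus strand, with 1 GAS 90 bases before the start: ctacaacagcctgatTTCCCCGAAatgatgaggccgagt

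The Ifit3 stretch had 2 exact matches in the chromosome, the other at chr19:34682244-34682317, before the start of the neighbouring gene I830012O16Rik. A GAS of Bst2, left in lower case apart from the bases it shares with the cores, began 136 bases before the start. In the window of Ifitm3 a GAS overlapped the downstream of 2 cores. A motif match describes the letters of a window and does not show binding. Neither motif was found in the windows of Irf7, Irf9, Oasl2, Cmpk2, Trim25, Dtx3l, Ifi44 or Xaf1, and Dhx58, Oas2, Mx1, Mx2, Usp18, Parp9, Parp14 and Rtp4 had no entry.

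**Figure D1:**
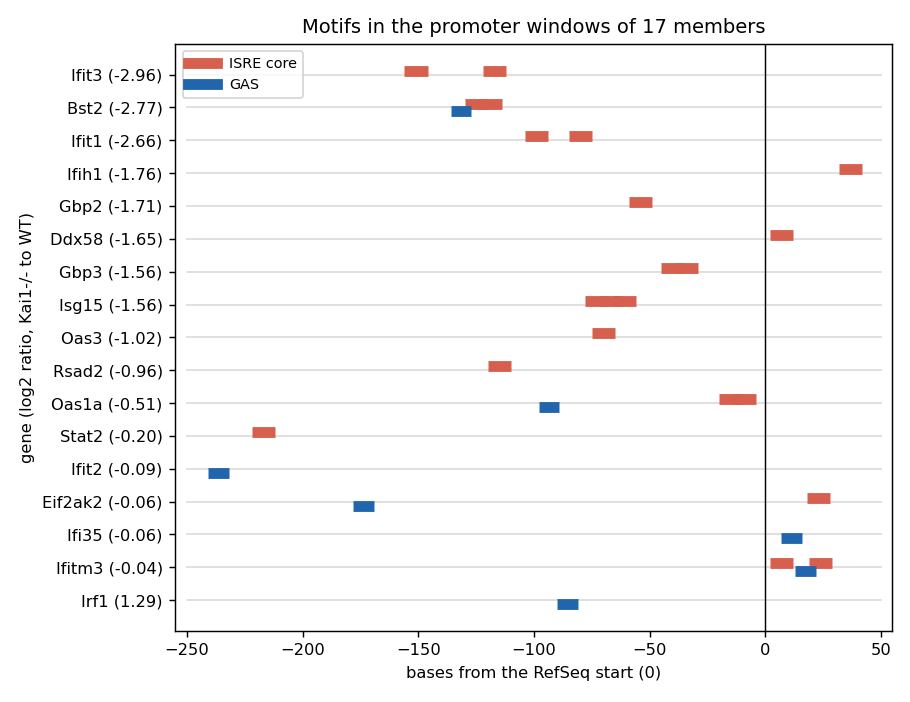
Position of the ISRE core and GAS motifs in the promoter windows of the 17 members that hold either, in bases from the RefSeq start, with members ordered by the log2 ratio of Kai1-/- to WT in parentheses. Bars mark each match, and ISRE cores stood before the start in Ifit3, Bst2 and Ifit1 and after it in Ifih1, Ddx58, Eif2ak2 and Ifitm3.

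The tables gave no read totals. The lowest RPKM values lay at multiples of what a single read is worth, with 80.6% of 490 low WT values and 79.5% of 307 low Kai1-/- values within 0.15 of a whole read, and the steps corresponded to about 29600000 WT and 26600000 Kai1-/- reads. Reads per gene were estimated from these steps and are approximate, and the 95% intervals below (Clopper-Pearson) cover counting error only. The targeted gene Cd82 was at 12.8 RPKM in WT PCs and still at 2.62, that is 20.5% of this value, in Kai1-/- PCs. The 4 Y-linked genes looked up were above 0 in WT and 0 of 4 in Kai1-/-, so the sex of the cells and the genotype cannot be told apart. In bulk RNA, fewer cells that express a gene and less RNA per cell cannot be told apart.

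Of the 4 transcription factor genes, Irf7 was lower in the Kai1-/- library, Irf1 was higher, and Stat2 and Irf9 differed by less than 2-fold. Irf7 encodes the factor that amplifies type I interferon transcription and is itself interferon-induced. It stood at 10.0 RPKM in WT PCs against 1.03 in Kai1-/- PCs, from about 605 and 56 reads, which is 9.73-fold lower (counting interval 7.38 to 13.0). Only 0.765% of the 10068 expressed genes had a lower ratio. Irf1, a factor induced through GAS sites by interferon gamma and by other stimuli, stood at 5.49 RPKM in WT PCs against 13.5 in Kai1-/- PCs, which is 2.47-fold higher (2.16 to 2.83). In WT PCs the RPKM of Irf7 was 1.83 times that of Irf1, and in Kai1-/- PCs that of Irf1 was 13.1 times that of Irf7. Irf9, the DNA-binding subunit of ISGF3, stood at 10.3 RPKM in WT PCs against 5.72 in Kai1-/- PCs, 1.81-fold lower (1.61 to 2.04). Stat2 stood at 4.93 RPKM in WT PCs against 4.26 in Kai1-/- PCs, 1.16-fold lower (1.02 to 1.30).

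All 3 genes of the RIG-I-like receptors, helicases that recognise viral RNA in the cytosol, had lower values in Kai1-/- PCs. Ddx58, which encodes RIG-I, stood at 2.46 RPKM in WT PCs against 0.718 in Kai1-/- PCs, 3.43-fold lower (2.64 to 4.54). Ifih1, which encodes MDA5, had 0.533 and 0.0868 RPKM, from about 83 and 12 reads, and was 6.14-fold lower (3.38 to 12.5). Dhx58, which encodes LGP2, had 0.763 and 0.491 RPKM, and its interval, from 0.976 to 2.53-fold lower, included no difference.

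The effectors ranged from the most abundant transcript of the list to genes that were barely detected. Ifitm3, a membrane protein that blocks the entry of viruses, made up 87.1% of the summed RPKM of the 33 genes in WT PCs and 91.6% in Kai1-/- PCs. It stood at 999.2 RPKM in WT PCs against 969.3 in Kai1-/- PCs. Without Ifitm3 the other members summed to 148 RPKM in WT PCs against 89.2 in Kai1-/- PCs. Bst2, which encodes tetherin, a membrane protein that holds budding virus particles, had 22.3 and 3.19 RPKM, 6.99-fold lower (5.16 to 9.64). Of these membrane effectors, then, Bst2 differed and Ifitm3 was at nearly the same RPKM in both libraries. With both libraries scaled to Gapdh, the log2 ratio of Ifitm3 went from -0.04 to -0.54.

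**Figure D2:**
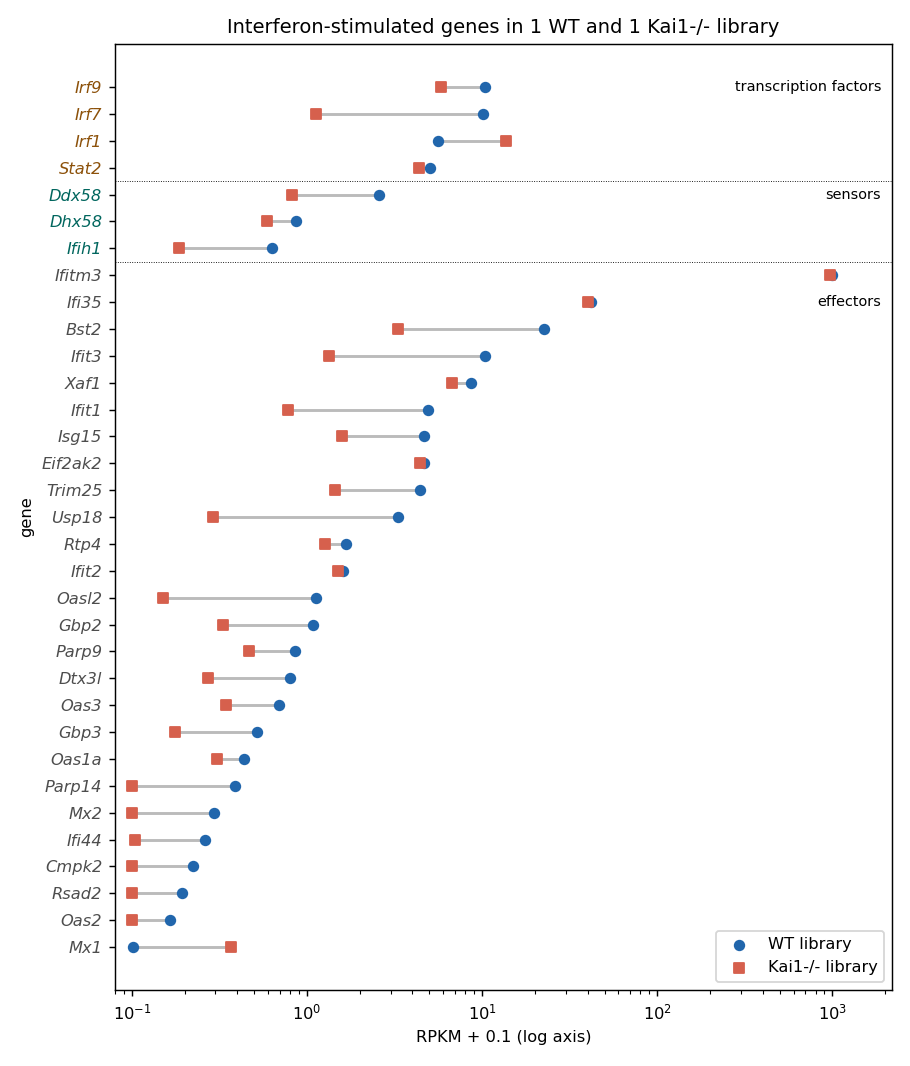
RPKM plus 0.1 on a log axis for the 33 interferon-stimulated genes in the WT library (circles) and the Kai1-/- library (squares), grouped by role and ordered by the WT level, with a grey line joining the values of a gene. Squares lie to the left of circles for 31 genes, and to the right for Irf1 and Mx1.

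The IFIT genes encode tetratricopeptide proteins that bind viral RNA or its translation machinery, and lie side by side on chromosome 19. Ifit2 (34625184 to 34650909) stood at 1.50 RPKM in WT PCs against 1.41 in Kai1-/- PCs, and its interval ran from 0.842 to 1.35-fold lower. Ifit3 (34658021 to 34663221) had 10.3 and 1.23 RPKM, 8.31-fold lower (6.18 to 11.3). Ifit1 (34715361 to 34724499) had 4.79 and 0.676 RPKM, 7.09-fold lower (5.18 to 9.96). The level of Ifit1 was thus 3.18 times that of Ifit2 in WT PCs and 0.480 times in Kai1-/- PCs, and the level of Ifit3 went from 6.82 to 0.877 times that of Ifit2. Of the 50-base stretches of the Ifit3 transcript, 51.5% also occurred in another gene, chiefly I830012O16Rik, so that the authors' counting could split reads between these copies. I830012O16Rik itself stood at 1.06 RPKM in WT PCs against 0.181 in Kai1-/- PCs.

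The genes of the ISG15 system were lower as well. Isg15, a ubiquitin-like protein that is attached to other proteins, stood at 4.58 RPKM in WT PCs against 1.49 in Kai1-/- PCs, from about 75 and 22 reads, and was 3.08-fold lower (1.88 to 5.18). Usp18, the protease that removes ISG15 and restrains signalling at the type I interferon receptor, had 3.21 and 0.191 RPKM, from about 149 and 8 reads, and was 16.8-fold lower (8.28 to 39.5). With a log2 ratio of -3.51, Usp18 had the lowest value of the 33 genes on the scale of log2(RPKM + 0.1). Trim25, a ubiquitin ligase that acts on RIG-I, had 4.31 and 1.35 RPKM, 3.20-fold lower (2.73 to 3.78). Dtx3l, a ubiquitin ligase that partners PARP9, had 0.704 and 0.172 RPKM, 4.10-fold lower (2.65 to 6.88). Parp9 had 0.753 and 0.367 RPKM, 2.05-fold lower (1.34 to 3.14). On chromosome 16, Dtx3l (35926597 to 35939237, minus strand) and Parp9 (35938556 to 35972691, plus strand) overlap at their starts, and 8.06% and 8.82% of their 50-base stretches are shared, so that reads there cannot be assigned without strand. Their neighbour Parp14, a further ADP-ribosyltransferase, reached 0.287 RPKM, about 61 reads, in WT PCs and was listed at 0 in Kai1-/- PCs.

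The oligoadenylate synthetases and PKR are activated by dsRNA. Eif2ak2, which encodes the kinase PKR, stood at 4.53 RPKM in WT PCs against 4.33 in Kai1-/- PCs, and its interval ran from 0.922 to 1.18-fold lower. Oasl2 had 1.03 and 0.0510 RPKM, from about 89 and 4 reads, and was 20.2-fold lower (7.54 to 75.0). Oas3 had 0.592 and 0.242 RPKM, 2.44-fold lower (1.58 to 3.89). Oas1a had 0.334 and 0.206 RPKM, with an interval from 0.716 to 4.32-fold lower, and 57.1% of its 50-base stretches occurred in another gene, chiefly Oas1g. Oas2 reached 0.0645 RPKM in WT PCs and was listed at 0 in Kai1-/- PCs. The synthetase genes were therefore at low levels in both libraries, while the kinase gene was at the level of Stat2.

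The remaining effectors split in the same manner. Ifi35, a leucine zipper protein, stood at 41.8 RPKM in WT PCs against 40.0 in Kai1-/- PCs, and its interval ran from 0.965 to 1.13-fold lower. Xaf1, which binds the apoptosis inhibitor XIAP, had 8.48 and 6.65 RPKM, 1.28-fold lower (1.13 to 1.45). Rtp4, a receptor-transporting protein, had 1.58 and 1.17 RPKM, with an interval from 0.895 to 2.02-fold lower. These 3 genes differed by less than 2-fold between the libraries. Gbp2 and Gbp3, GTPases that act on pathogen-containing vacuoles, had 0.989 and 0.421 RPKM in WT PCs, against 0.232 and 0.0767 in Kai1-/- PCs. They were 4.25-fold (2.43 to 8.41) and 5.48-fold (2.15 to 18.4) lower, the latter from about 31 and 5 reads. Ifi44 stood at 0.162 RPKM in WT PCs against 0.00433 in Kai1-/- PCs, where the value was below that of 1 read. Rsad2, which encodes viperin, and Cmpk2, its neighbour on chromosome 12 and a mitochondrial nucleotide kinase, had 0.0942 and 0.124 RPKM in WT PCs and were listed at 0 in Kai1-/- PCs. The Mx genes encode dynamin-like GTPases, which are not functional in C57BL/6 mice. Mx2 reached 0.196 RPKM in WT PCs and was listed at 0 in Kai1-/- PCs, and Mx1 had 0.00186, below the value of 1 read, in WT PCs and 0.270, about 23 reads, in Kai1-/- PCs.

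In all, 5 members were listed at 0 in the Kai1-/- library and 0 in the WT library. Their WT values ran from 0.0645 to 0.287. Of the 1695 genes with a WT RPKM from 0.05 to 0.3, 37.8% were listed at 0 in the Kai1-/- library, so that values of 0 were common at this level. That share takes no account of transcript length. The 5 members had about 7 (Oas2), 11 (Rsad2), 11 (Cmpk2), 13 (Mx2) and 61 (Parp14) estimated WT reads. Ifi44, the other member in this range, was not at 0 but below the value of 1 read. Among the 6440 genes with a WT RPKM of at least 5, by contrast, 3 were listed at 0.

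**Figure D3:**
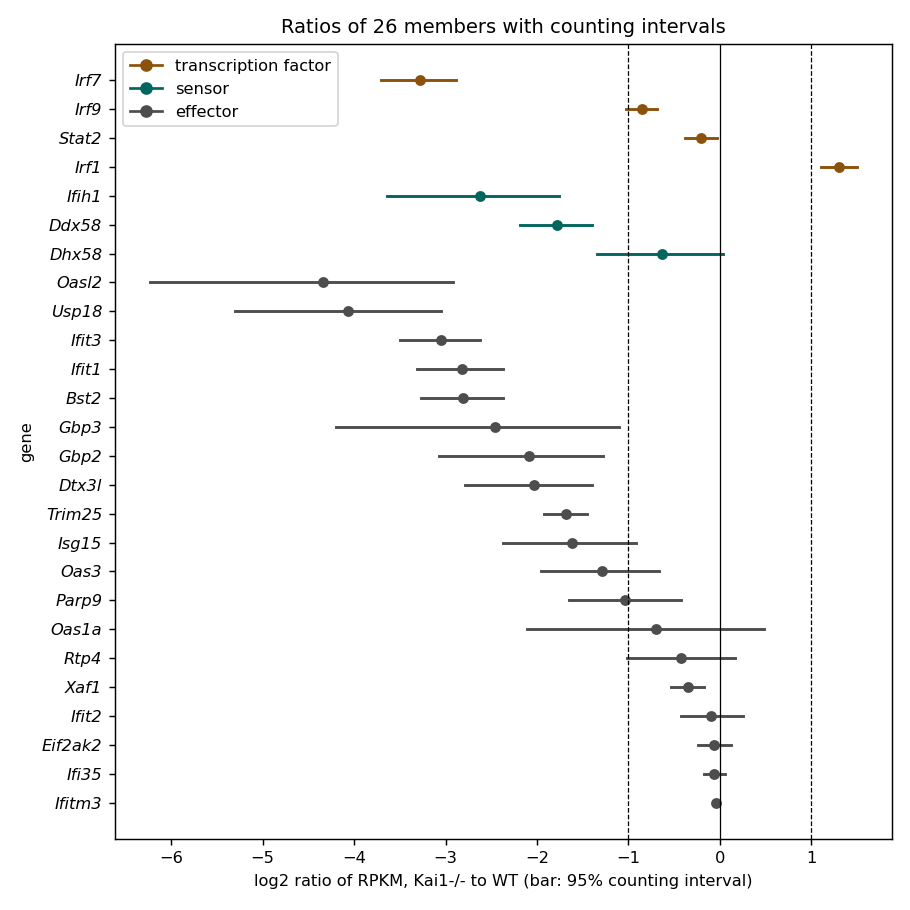
Log2 ratio of the RPKM of Kai1-/- to WT for the 26 members with at least 1 estimated read in each library, by role, with bars for the 95% counting interval and dashed lines at 2-fold. The interval lay wholly below 0 for 19 genes, wholly above 0 for Irf1, and across 0 for 6 genes. Bars cover counting error only and exclude 0 for small differences in genes with many reads, as in Ifitm3 (1.03-fold lower). The share of all genes with such an interval was not computed.

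Compared with all genes, a larger share of the list was lower in Kai1-/- PCs. The members, and the other lists below, were chosen with earlier results of these data known. Their shares are therefore not independent of that choice. Of the 17 expressed members, 8 were more than 2-fold lower on the scale of log2(RPKM + 0.1), or 47.1%, against 7.81% of the 10068 expressed genes. They were Usp18, Irf7, Ifit3, Bst2, Ifit1, Ddx58, Trim25 and Isg15. Irf1 was the 1 member more than 2-fold higher, or 5.88%, against 7.98% of all expressed genes. Scaled to Gapdh, which lowers the median log2 ratio of all expressed genes from 0.08 to -0.41, Irf1 had a log2 ratio of 0.79 and no longer reached 2-fold. The median log2 ratio was -0.84 over the 17 members and 0.08 over all expressed genes. Of these 17 genes, 3 had an RPKM below 1 in the Kai1-/- library and passed the filter through their WT value alone, so the counts over all 33 members are given too. Without the filter, 18 of the 33 were more than 2-fold lower, or 54.5%, against 9.29% of all 20211 genes, and 2 were higher, or 6.06%, against 5.96%. The median of the 33 was -1.17. By RPKM alone 31 of the 33 were lower in Kai1-/- PCs, compared with 37.8% of all 20211 genes. Of all genes 5423 were at 0 in both libraries, and of the members 0, so that 37.8% is a low benchmark. Among expressed genes, 16 of the 17 members were lower, compared with 44.9% of all.

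The roles overlapped in their ratios. Over all members regardless of level, the median log2 ratio was -0.52 for the 4 transcription factors, with values from -3.16 to 1.29. It was -1.65 for the 3 sensors, from -1.76 to -0.55, and -1.25 for the 26 effectors, from -3.51 to 1.86. More than 2-fold lower were 1 of the 4 transcription factors, 2 of the 3 sensors and 15 of the 26 effectors. With the filter on mean RPKM, the effectors had a median of -0.98 over 12 genes, 6 of them more than 2-fold lower and 0 higher, and Ddx58 was the only sensor left. Counting Oas1a, Oas2, Oas3 and Eif2ak2 as sensors, of which only Eif2ak2 was expressed, gave medians of -0.85 for sensors and -1.56 for effectors, the reverse of the order above. No order of the roles can be given from these data.

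A smaller share of the genes upstream of the response than of the members lay beyond 2-fold. All 10 interferon genes looked up (Ifnb1, Ifna1, Ifna2, Ifna4, Ifna5, Ifne, Ifnk, Ifng, Ifnl2 and Ifnl3) were listed at 0 in both libraries. Of the 14 receptor, kinase, STAT and feedback expressed genes, 0 lay beyond 2-fold in either direction. Of all expressed genes, 7.81% were lower and 7.98% higher, and whether so short a list differs from these shares was not tested. The type I receptor genes Ifnar1 and Ifnar2 had 4.05 and 18.6 RPKM in WT PCs, against 4.33 and 21.4 in Kai1-/- PCs. The type II receptor genes Ifngr1 and Ifngr2 had 6.01 and 31.5 in WT PCs, against 7.30 and 27.8 in Kai1-/- PCs. The kinase gene Jak1 stood at 32.0 RPKM in WT PCs against 17.2 in Kai1-/- PCs, the lowest log2 ratio of this list at -0.89. The feedback inhibitor gene Socs1 had 3.05 and 3.33 RPKM, and Socs3 had 5.61 and 9.71, the highest log2 ratio at 0.78. Jak2, Tyk2, Stat3, Pias1, Ptpn2 and Il10rb had log2 ratios from -0.54 to 0.34.

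Of 15 genes for nucleic acid sensing and its adaptors that were expressed, 2 lay more than 2-fold below WT, or 13.3%, and 0 above. The shares of all expressed genes were 7.81% and 7.98%, and a difference from them was not tested. Zbp1, a sensor of Z-form nucleic acid that is itself interferon-induced, stood at 2.69 RPKM in WT PCs against 0.280 in Kai1-/- PCs, 9.62-fold lower. Ikbke, a kinase of IRF3 and IRF7, had 5.78 and 2.28 RPKM, 2.53-fold lower. Its relative Tbk1 had 5.97 and 8.08 RPKM. The adaptor genes Mavs and Tmem173, which encode MAVS and STING, had 8.15 and 17.7 RPKM in WT PCs, against 10.4 and 16.2 in Kai1-/- PCs. Irf3, the factor that MAVS and STING activate, had 16.7 and 28.8 RPKM. Log2 ratios of the other 9 expressed genes, Mb21d1, Irf5, Irf2, Myd88, Ticam1, Traf3, Trex1, Samhd1 and Adar, ran from -0.70 to 0.39.

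A further list of 59 interferon-induced genes outside the 33 differed less than the members did. Both lists were chosen with earlier results of these data known, so the comparison is descriptive. Of the 59 genes, 57 were in the tables and 27 were expressed. Of the 27, 4 were more than 2-fold lower, or 14.8%, against 7.81% of all expressed genes. A single gene was higher, or 3.70%, against 7.98%, and the median log2 ratio of the 27 was -0.23. By sign alone, 19 of the 27 had a log2 ratio below 0 and 8 above. The lower genes were Lgals3bp, a secreted glycoprotein, at 42.3 RPKM in WT PCs against 4.70 in Kai1-/- PCs, Ifi27 with 372 and 111, Ifi204 with 2.62 and 0.627, and Parp10 with 2.05 and 0.799. The higher gene was Isg20, an exonuclease, with 20.9 and 46.8. Within 2-fold, the lowest log2 ratios were those of Tdrd7 (-0.95), Apol9a (-0.85), Ube2l6 (-0.85), Tor3a (-0.82) and Irgm1 (-0.80), and the highest were those of Ifitm2 (0.62), Psme2 (0.54), Daxx (0.40), Zc3hav1 (0.26) and Nmi (0.23). Without the filter 17 of the 57 were more than 2-fold lower, or 29.8%, against 9.29% of all genes, and 1 was higher, or 1.75%, against 5.96%.

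**Figure D4:**
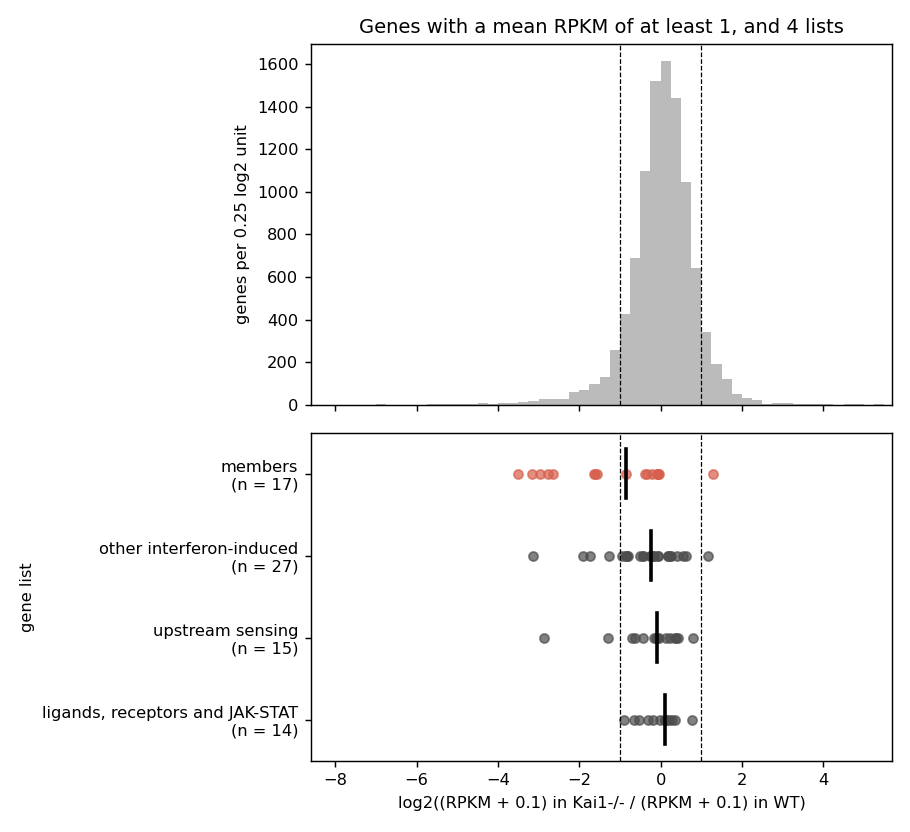
Top, number of genes per 0.25 unit of the log2 ratio of Kai1-/- to WT among all 10068 expressed genes; bottom, the log2 ratio of each gene of the 17 members and of 3 other lists, with a black bar at the median and dashed lines at 2-fold. The members have their median at -0.84, and the ligand, receptor and JAK-STAT genes have theirs at 0.10.

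Most of the expressed markers of mural cells and of macrophages were also lower in Kai1-/- PCs. Of the mural genes, Acta2 stood at 3823 RPKM in WT PCs against 2580 in Kai1-/- PCs, and Pdgfrb had 44.7 and 31.6. Tagln, Cnn1 and Cspg4 were also above 1 RPKM in both libraries, while Rgs5, Abcc9 and Kcnj8 were below 1 in both. Des, Notch3, Mcam and Myh11 were below 1 RPKM in the Kai1-/- library. The label of the cells was thus met by only part of these markers, and their identity was not tested. Over all 12 mural markers the sum was 4646 and 2978. More than 2-fold lower were 5 of them, or 41.7%, against 9.29% of all genes, and 2 were higher, or 16.7%, against 5.96%. The 2 higher genes were Rgs5, with 0.0630 RPKM in WT PCs and 0.233 in Kai1-/- PCs, and Kcnj8, with 0 and 0.791. The 7 mural markers that were expressed had a median log2 ratio of -1.04. Of them, 4 were more than 2-fold lower, or 57.1%, against 7.81% of all expressed genes. These were Mcam, 18.6-fold lower, Myh11, 8.55-fold, Cnn1, 2.43-fold, and Tagln, 2.06-fold, against 1.48-fold for Acta2 and 1.41-fold for Pdgfrb. Over all 16 macrophage markers the summed RPKM was 41.3 in WT PCs and 19.7 in Kai1-/- PCs. Of these markers, 7 were more than 2-fold lower, or 43.8%, and 1, Cd14, was higher, or 6.25%. The shares of all genes were 9.29% and 5.96%. Only 5 of the 16 were expressed. Of these, 4 were more than 2-fold lower, or 80%, against 7.81% of all expressed genes, and Cd14 was higher, or 20%, against 7.98%. Csf1r, Tyrobp and Fcer1g had 11.7, 10.4 and 11.3 RPKM in WT PCs, against 2.66, 2.37 and 2.47 in Kai1-/- PCs, and Lyz2 was 3.14-fold lower. Emr1, Aif1 and C1qa were at 0 in both libraries, and the pan-leukocyte gene Ptprc had 0.0407 and 0.00697 RPKM. Over 10 endothelial markers the sum was 1.30 in WT PCs and 0 in Kai1-/- PCs, with Emcn, Cldn5 and Esam at 0 in both. Over 8 plasmacytoid dendritic and lymphoid markers it was 0.0950 and 0.381, with Cd3e, Cd3g and Ncr1 at 0 in both and Siglech near 0. The part of these cell types in the levels of the interferon-stimulated genes was not tested.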

How the data were processed

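RNA of 1 WT and 1 Kai1-/- PC library was measured. Per the labels and the study's methods, alignment to mm9 used TopHat2 2.0.9 and Bowtie, and the authors deposited 1 RPKM value per RefSeq gene and library; they tested differences with Cuffdiff, and the read length, strand and depth were not given in the sources used here. Of 20462 rows, 38 had no symbol and were left out, and repeated symbols were averaged. Log2 ratios used a pseudocount of 0.1 RPKM, which understates the change of low genes. Counts used genes whose RPKM averaged 1 or more (expressed genes), and more than 2-fold.

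Reads per gene were estimated from the RPKM steps of genes with a single transcript of over 800 bases, less a fragment of 200 bases, and applied to the longest coding transcript of GENCODE M1 (NCBI37). Code was checked on simulated data. Alternatives were a pseudocount of 1 or 0.01, 3 scalings, other filters, summed repeats and another division of the roles. Named are every member, the expressed genes of the 2 upstream lists, of the other interferon-induced genes the expressed ones past 2-fold with at least the 6 lowest and 6 highest ratios, and markers where a result turns on them. Values of 2 genes of the other lists are not reported here. The members and lists were chosen with earlier results of these data known. Python 3.11.15, numpy 2.4.6, pandas 2.3.3, scipy 1.17.1 and matplotlib 3.10.9 were used.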

Additional observations from a re-analysis of the deposited data

How the results depend on the processing

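No paired analysis was possible because there is 1 library per genotype, and no replicate could be left out. Of 198 recomputed log2 ratios of single members, 156 moved by less than 0.5 of the width of the counting interval (by less than 0.34, the median of that measure over expressed members, for the 7 members without an interval), 42 moved further, 0 changed sign and 18 crossed the 2-fold line, 11 of them low genes under a pseudocount of 1 RPKM. The 33 ratios recomputed with repeated symbols summed could not move, because 0 members were on more than 1 row. They are among the 156 and say nothing about stability. The pseudocount of 1 RPKM moved the median of the sensors, Ddx58 alone, from -1.65 to -1.01. Scaling to Gapdh, whose own log2 ratio was 0.50, shifted the median of all genes from 0.08 to -0.41, of the members to -1.33, of the transcription factors to -1.01, of the sensors to -2.08 and of the effectors to -1.44. Under it 1856 genes lay over 2-fold below WT and 278 above, with 0 members higher and, of the other interferon-induced genes, 9 lower and 0 higher. Without the filter on mean RPKM, 18 members were lower and 2 higher, 1878 and 1205 of all genes, and 17 of the other interferon-induced genes were lower. With a mean RPKM of at least 5, 3 members were lower (of all genes 350 lower and 511 higher, of the other interferon-induced genes 2 lower), the effectors had a median of -0.35, and no sensor was left. Counting the dsRNA-activated enzymes as sensors gave medians of -0.85 and -1.56 for sensors and effectors. The filters change which genes are counted, and the other division of the roles changes which genes a role holds. A larger pseudocount shrinks the ratios of low genes. The Gapdh scaling multiplies every Kai1-/- value by the same factor, the ratio of WT to Kai1-/- Gapdh. Estimated reads of 4 to 12 in the Kai1-/- library limit Oasl2, Gbp3, Usp18, Oas1a and Ifih1.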

Other observations

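The ISRE core was also looked for in promoters of genes outside the list. Of the expressed genes, 7644 had a RefSeq promoter and 263 of these held the core. Among the 255 that were not members, 9.02% were more than 2-fold lower in Kai1-/- PCs and 9.41% higher, with a median log2 ratio of 0.04, against 7.29% and 7.69% of all 7644 genes and a median of 0.09. Of the 8 expressed members with the core, 5 were more than 2-fold lower, and the other 3 were Stat2, Eif2ak2 and Ifitm3. Among the 5, Ifit1 and Ddx58 had 0.676 and 0.718 RPKM in Kai1-/- PCs and passed the filter through their WT value alone. The count is therefore not independent of the filter. Of the 7 expressed members with a promoter entry and no core, 2, Irf7 and Trim25, were more than 2-fold lower.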
